A study of Cricetulus griseus with 16 samples.

Results

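The integrated stress response (ISR) is the program by which a stressed cell lowers general protein synthesis while it raises the translation of a few mRNAs, among them that of the transcription factor ATF4. The axis that runs from ATF4 to CHOP, the protein product of Ddit3, was followed here at the mRNA level in Chinese hamster ovary (CHO) cells exposed to mild or moderate heat. Its 10 members were picked by name, without regard to case, from the 20824 genes of the count table, and 10 of 10 were found. They are the transcription factors Atf4, Ddit3, Atf3 and Atf5, the CHOP and ATF4 targets Chac1, Trib3 and Ppp1r15a, the inhibitors of the growth-promoting kinase complex mTORC1 Sesn2 and Ddit4, and Asns, the enzyme that makes asparagine, which the table lists as ASNS.

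As background, 4 kinases named PERK, GCN2, PKR and HRI sense misfolded protein in the endoplasmic reticulum (ER), lack of amino acids, double-stranded RNA, and lack of heme or mitochondrial damage. Each phosphorylates the translation factor eIF2α, and ATF4 then accumulates chiefly because its mRNA is translated better, so the level of Atf4 mRNA does not report the level of ATF4 protein. ATF4 and its partners switch on genes of amino acid supply, and under sustained stress CHOP takes part in a program that can end in cell death. GADD34, the product of Ppp1r15a, closes the loop by directing a phosphatase to eIF2α, and TRIB3 is a pseudokinase that restrains ATF4 and CHOP.

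CHO is an established line derived from hamster ovary, here the stock CCL-61. The cells shared 1 medium and were kept at 37 °C (controls), heated to 40 °C for either 1 h or 6 h, or heated to 42.5 °C for 1 h, with no recovery period named in the labels, and 4 biological repeats of each were sequenced. The groups at 40 °C are called 40 °C/1 h and 40 °C/6 h below. The question was how the dose of heat, in degrees and hours, shapes the response. By their labels, the pair heated for 1 h differs in temperature, and the pair at 40 °C differs in duration. The 42.5 °C and 40 °C/6 h groups differ in both. No time is given for the controls, so hours of heat cannot be told apart from hours in culture.

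The 16 libraries held between 10504192 and 14668365 counts. Levels are given as CPM (counts divided by the library total and put on a common scale), scaled between libraries by the TMM method. They compare 1 gene between conditions and not 1 gene with another, since gene lengths were not used. A floor of 3 counts corresponded to between 0.204 and 0.296 CPM, and every member stood above it in every library, with counts from 29 to 2930. In 37 °C replicate D, 17.8% of 10565 genes differed by 1.5 times or more from the mean of the other controls, against 1.27% to 2.18% in the other libraries, and this library was taken to be the control that the study left out. It is left out of means and tests below (n = 3 at 37 °C, n = 4 elsewhere) and its level is given where it bears on a member's call. Of the mesenchymal markers, Vim was at 1823 to 2684 CPM and Fn1 at 210 to 435 CPM, while Col1a1 and Cdh2 stood under 1 CPM. The 4 epithelial markers found summed to at most 4.14 CPM, the 5 germ cell markers to at most 2.23 CPM and the 4 immune markers to at most 0.177 CPM. Of 6 ovarian follicle markers, Foxl2, Fshr and Cyp19a1 had no counts, and the sum of all 6 was 7.88 to 10.2 CPM in the controls, 11.7 to 16.7 CPM in the 40 °C/6 h group and 11.2 to 15.2 CPM at 42.5 °C. The part of these shifts in the results was not tested. In a bulk library, fewer responding cells and less RNA per cell cannot be told apart.

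Adjusted p values come from edgeR's quasi-likelihood test over all genes kept by its filter, with Benjamini-Hochberg adjustment. A member is said to have passed, or to have risen or fallen, when its adjusted p was under 0.05, and it is called a differentially expressed gene (DEG) when the change was also at least 1.5-fold. All 10 members entered every one of the 6 comparisons.

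The members moved in both directions. After 1 h at 40 °C, 1 of the 10 members passed and 0 were DEGs, where 1.64% of all tested genes passed and 0.334% were DEGs. After 6 h at 40 °C, 5 members passed and 3 were DEGs (Atf4, Atf3 and Sesn2, all lower), against 29.4% and 3.11% of all genes. After 1 h at 42.5 °C, 4 members passed and 3 were DEGs (Chac1 and Atf3 higher, Trib3 lower), against 43.1% and 7.51%. The median log2 fold change of the members was -0.08, -0.24 and 0.14 in these 3 comparisons, and that of all tested genes was at most 0.00167 away from 0. The share of members that passed at 42.5 °C lay near that of all genes, so the count of passing members does not set them apart there.

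**Figure D1:**
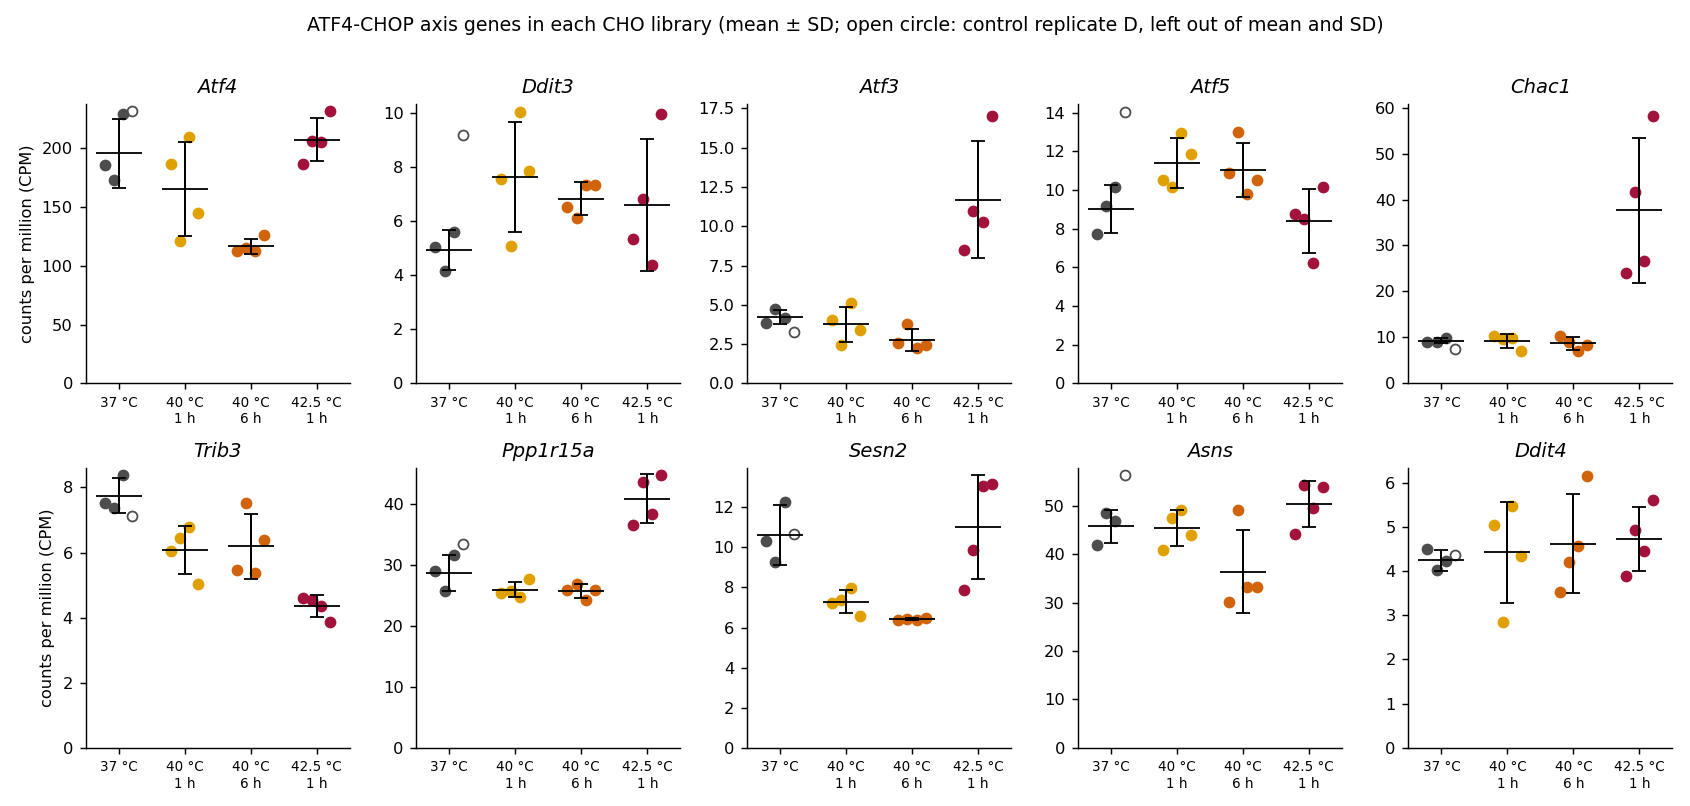
Level of each of the 10 members in CPM (vertical axes from 0) in every library of the 4 groups, with the mean and SD as black bars and 37 °C replicate D as an open circle that enters neither. Chac1 and Atf3 stand high in the 4 libraries at 42.5 °C, Atf4 and Sesn2 stand low in the 4 of the 40 °C/6 h group, and Trib3 is lowest at 42.5 °C.

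Atf4 (ENSCGRG00001018678), the regulator at the head of the axis, fell after 6 h at 40 °C and passed at neither of the other doses. Its control libraries A to C were at 185, 173 and 229 CPM, those after 1 h at 40 °C at 187, 121, 209 and 144 CPM, those after 6 h at 113, 115, 112 and 126 CPM, and those at 42.5 °C at 186, 206, 205 and 231 CPM. The 4 libraries of the 6 h group lay close together and below each control and each 42.5 °C library, while the 1 h libraries at 40 °C were spread from near the 6 h level to the control level. The fall at 6 h was 1.68-fold, from 196 ± 29.2 CPM (SD, n = 3) to 117 ± 6.42 CPM (SD, n = 4), or -0.75 in log2 units with an SE of 0.07 (adjusted p = 2.68e-06). The difference at 1 h was -0.24 (SE 0.14, adjusted p = 0.448), and that at 42.5 °C was 0.08 (95% interval -0.09 to 0.25, adjusted p = 0.449).

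In the order of its means, Atf4 was highest at 42.5 °C, then in the controls, the 40 °C/1 h group and the 40 °C/6 h group. The first pair and the second pair of neighbours in this order did not differ beyond their spread by the test, whereas 1 h and 6 h at 40 °C differed by -0.50 (adjusted p = 0.00705). Against 42.5 °C the 6 h group was lower by a log2 difference of 0.82 (adjusted p = 1.5e-08). The difference of 0.32 between the 42.5 °C and 40 °C/1 h groups had an adjusted p of 0.0489 and was lost in 6 of 13 alternatives, namely under the DESeq2 Wald test (0.32, adjusted p = 0.196), without 40 °C 1 h replicate B (0.20, adjusted p = 0.134), and also without 40 °C 1 h replicate D (0.26) or 42.5 °C replicate B (0.33), C (0.33) or D (0.27). Leaving out 37 °C replicate C instead put Atf4 at 42.5 °C past the test (0.20, adjusted p = 0.0308).

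Ddit3 (ENSCGRG00001015590), which encodes CHOP, had its lowest levels in the controls. The 3 controls used were at 5.05, 4.16 and 5.61 CPM, the libraries after 1 h at 40 °C at 7.55, 5.07, 10.0 and 7.84 CPM, those after 6 h at 6.53, 6.10, 7.34 and 7.33 CPM, and those at 42.5 °C at 5.33, 6.81, 4.36 and 9.94 CPM. The 6 h libraries lay above every control that was used, and the libraries of both 1 h groups overlapped with the controls. Control replicate D, at 9.17 CPM, stood 1.86 times above the mean of the other controls and higher than all 4 libraries of the 6 h group. Ddit3 rose 1.39-fold at 6 h, by 0.47 in log2 units with an SE of 0.14 (adjusted p = 0.0188), short of the DEG fold. This call was lost in 5 of 13 alternatives. With all 4 controls the value was 0.20 (adjusted p = 0.584), under the DESeq2 Wald test 0.47 (adjusted p = 0.0571) and in 1 fit over all groups 0.47 (adjusted p = 0.12), and it was also lost without 37 °C replicate B (0.36, adjusted p = 0.114) or 40 °C 6 h replicate C (0.43, adjusted p = 0.053).

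The largest mean difference of Ddit3 was that of the 40 °C/1 h group, 0.63 on the log2 scale (95% interval 0.22 to 1.03), with an adjusted p of 0.123. It was a DEG in 3 of 13 alternatives, which are no filter on low counts (0.63, adjusted p = 0.0203), the replicate block and leaving out 1 library. Without 40 °C 1 h replicate B, the lowest of that group, it was 0.78 (adjusted p = 0.0128), and without replicate C, the highest, 0.48 (adjusted p = 0.305). At 42.5 °C it was 0.44 (SE 0.22, adjusted p = 0.12), with no filter on low counts it passed at the same size (adjusted p = 0.0403), and without 42.5 °C replicate C it was 0.60 (adjusted p = 0.0302), while without replicate D it was 0.16 (adjusted p = 0.501). No comparison among the 3 heated groups passed for Ddit3. Its counts were between 45 and 126 per library, for which the Poisson counting error is 14.9% to 8.91% of the value, against a coefficient of variation of 36.9% among the libraries at 42.5 °C and 26.7% in the 40 °C/1 h group.

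Atf3 (ENSCGRG00001013063), a factor induced by many stresses and a target of ATF4, moved in opposite directions at the 2 stronger doses. It was at 3.86, 4.74 and 4.14 CPM in the controls, at 4.01, 2.46, 5.14 and 3.41 CPM after 1 h at 40 °C, at 2.56, 3.80, 2.29 and 2.42 CPM after 6 h, and at 8.49, 10.96, 10.3 and 17.04 CPM at 42.5 °C. Each library at 42.5 °C lay above each other library, and the 6 h libraries lay just below the 3 controls used, with replicate B at 3.80 CPM next to the lowest of these, 3.86 CPM. Control replicate D, at 3.29 CPM, lay below that 6 h library. The rise at 42.5 °C was 2.77-fold, from 4.25 ± 0.451 CPM (SD, n = 3) to 11.7 ± 3.71 CPM (SD, n = 4), which is 1.47 in log2 units with an SE of 0.21 (adjusted p = 5.41e-05). Without 42.5 °C replicate D, the highest library, it was 1.21 (adjusted p = 3.13e-06). Atf3 at 42.5 °C also exceeded the 40 °C/1 h group, by 1.65 (adjusted p = 3.78e-05), and the 40 °C/6 h group, by 2.08 (adjusted p = 9.47e-07).

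The fall of Atf3 after 6 h at 40 °C, -0.62 (SE 0.19, adjusted p = 0.0204), was a DEG by a narrow margin. It rested on 29 to 48 counts per heated library, and it passed in 7 of 13 alternatives and was a DEG in 6, the replicate block being the 1 in which it passed short of the DEG fold. With all 4 controls it was -0.54 (adjusted p = 0.105), under the DESeq2 Wald test -0.62 (adjusted p = 0.0561) and in 1 fit over all groups -0.62 (adjusted p = 0.0951), and it did not pass without 37 °C replicate B (-0.52), 40 °C 6 h replicate C (-0.54) or 40 °C 6 h replicate D (-0.55). The 40 °C groups at 1 h and 6 h did not differ by the test (-0.43, 95% interval -0.90 to 0.03, adjusted p = 0.181), nor did the controls and the 40 °C/1 h group (-0.18, adjusted p = 0.735).

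Atf5 (ENSCGRG00001020961), which like ATF4 is controlled at translation and which guards mitochondrial protein folding, passed in no comparison with 37 °C. The controls used were at 7.72, 9.19 and 10.2 CPM and control replicate D at 14.1 CPM, above the libraries of all heated groups. The heated libraries were at 10.1 to 12.97 CPM after 1 h at 40 °C, at 9.78 to 12.99 CPM after 6 h and at 6.21 to 10.2 CPM at 42.5 °C. Atf5 was lower at 42.5 °C than in the 40 °C/1 h group, with a log2 difference of -0.43 (adjusted p = 0.019), and than in the 40 °C/6 h group, with -0.39 (adjusted p = 0.0257). Both calls were lost without 42.5 °C replicate C, at -0.31 (adjusted p = 0.0674) and -0.27 (adjusted p = 0.0944). The former was also lost without 40 °C 1 h replicate C (-0.36), and the latter without 40 °C 6 h replicate B (-0.30) or 42.5 °C replicate B (-0.39).

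Chac1 (ENSCGRG00001014710), a glutathione-degrading enzyme induced downstream of ATF4, ATF3 and CHOP, showed the largest change of any member. Its libraries were at 8.91, 8.97 and 9.92 CPM at 37 °C, at 10.4, 9.597, 9.87 and 7.06 CPM after 1 h at 40 °C, and at 10.4, 9.03, 7.02 and 8.42 CPM after 6 h, and then at 23.9, 41.7, 26.7 and 58.2 CPM at 42.5 °C. The 3 cooler groups overlapped, and the lowest 42.5 °C library stood more than 2 times above the highest library of all the others. The rise was 4.08-fold, from 9.27 ± 0.564 CPM (SD, n = 3) to 37.6 ± 15.8 CPM (SD, n = 4), equal to 2.03 in log2 units with an SE of 0.25 (adjusted p = 1.56e-05). Against the 40 °C/1 h group the difference was 2.03 as well (adjusted p = 8.96e-06), and against the 40 °C/6 h group it was 2.12 (adjusted p = 1.33e-06). Within 42.5 °C the libraries were uneven, with a coefficient of variation of 42.0% against 6.08% in the controls.

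Trib3 (ENSCGRG00001011910), also a target of ATF4 and CHOP, went the other way at 42.5 °C. It was at 7.51, 7.37 and 8.37 CPM in the controls, at 6.05, 6.45, 6.77 and 5.04 CPM after 1 h at 40 °C, at 5.47, 7.52, 5.36 and 6.39 CPM after 6 h, and at 4.61, 4.54, 4.36 and 3.87 CPM at 42.5 °C. All 4 libraries at 42.5 °C lay below each library of the 3 other groups, control replicate D (7.12 CPM) included. Trib3 fell 1.79-fold, or -0.84 in log2 units with an SE of 0.13 (adjusted p = 9.33e-05), and it was lower at 42.5 °C than in the 40 °C/1 h group (-0.50, adjusted p = 0.00955) and the 40 °C/6 h group (-0.52, adjusted p = 0.00721). After 1 h at 40 °C its libraries lay below the controls used as well, but the difference of -0.35 had an adjusted p of 0.206, and the 6 h value was -0.32 (adjusted p = 0.0879). In order of level, 37 °C stood first, both 40 °C groups followed without a difference that passed between them (0.03, adjusted p = 0.901), and 42.5 °C stood last.

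Ppp1r15a (ENSCGRG00001015451), which encodes GADD34, rose at 42.5 °C. The controls used were at 29.0, 25.7 and 31.6 CPM and control replicate D at 33.5 CPM, and the 42.5 °C libraries were at 36.6, 43.6, 38.4 and 44.8 CPM, all of them above every control. Its rise was 1.42-fold, or 0.51 in log2 units with an SE of 0.09 (adjusted p = 2.22e-04), and so below the DEG fold. In the 8 libraries at 40 °C it was at 24.2 to 27.7 CPM, and neither 40 °C group differed from 37 °C by the test (-0.15 and -0.16, adjusted p = 0.404 and 0.144). Set against them, 42.5 °C was higher by 0.65 (adjusted p = 7.0e-06) than 1 h and by 0.66 (adjusted p = 2.42e-06) than 6 h, and both differences were DEGs under all of the alternatives tried.

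**Figure D2:**
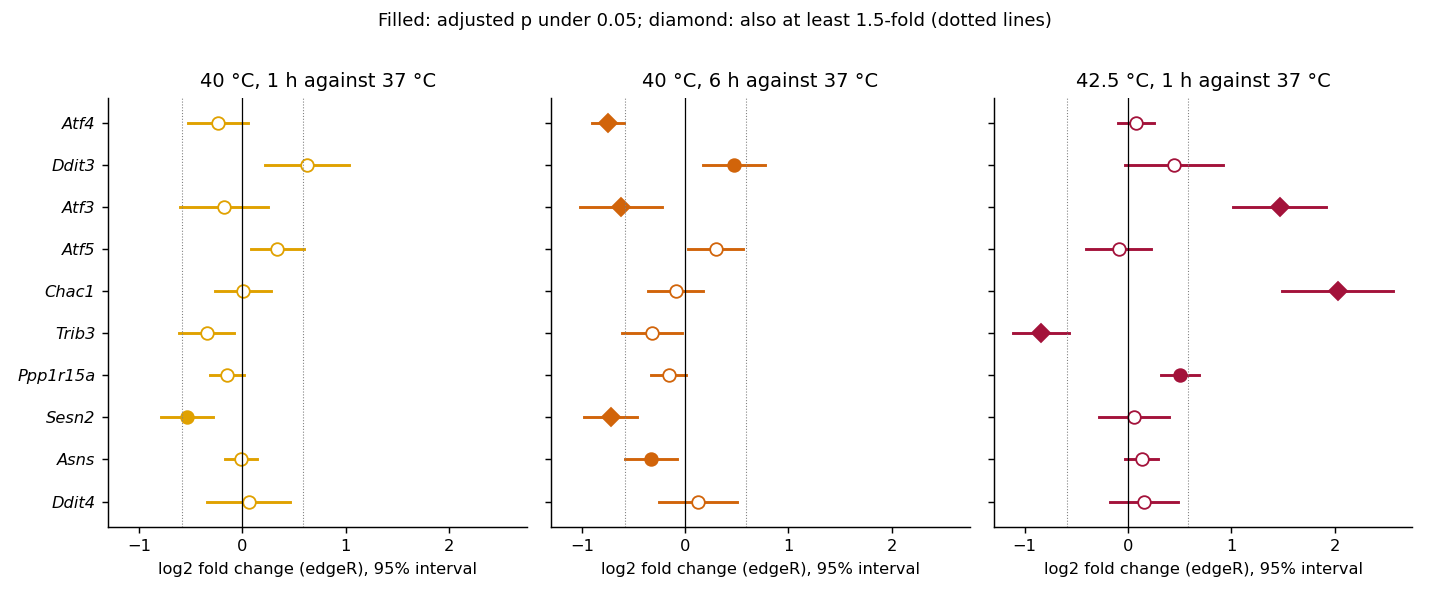
Log2 fold change of each member against 37 °C (horizontal axis, edgeR) with its 95% interval, for the 3 heat doses. Filled symbols passed the test and diamonds were also changed at least 1.5-fold; the 3 diamonds at 6 h (Atf4, Atf3, Sesn2) lie on the low side, and at 42.5 °C those of Atf3 and Chac1 lie on the high side and that of Trib3 on the low side.

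Sesn2 (ENSCGRG00001020650), a leucine-sensing inhibitor of mTORC1, fell at 40 °C. It was at 10.3, 9.27 and 12.2 CPM in the controls, at 7.21, 7.37, 7.996 and 6.59 CPM after 1 h at 40 °C, and at 6.36, 6.41, 6.39 and 6.47 CPM after 6 h. No library at 40 °C reached the lowest control, and those of 6 h lay below those of 1 h. The 6 h group had the smallest spread, with an SD of 0.0485 CPM and a coefficient of variation of 0.756%. Its 72 to 83 counts per library carry a counting error of 10.98% to 11.8% of the value. The spread lay below that error, so it does not show that the level itself was this even. The fall after 6 h was 1.65-fold, or -0.72 in log2 units with an SE of 0.12 (adjusted p = 3.45e-04), and it was a DEG under all 13 alternatives. After 1 h it was -0.53 (SE 0.12, adjusted p = 0.0332), the 1 value among the members that passed at this dose, and 7 of 13 alternatives lost it, among them the use of all 4 controls (-0.54, adjusted p = 0.188). The fit over all 4 groups together also lost it (-0.53, adjusted p = 0.0819). Control replicate D stood at 10.7 CPM, within the range of the other controls. Leaving out 37 °C replicate A (-0.55) or C (-0.43), or 40 °C 1 h replicate A (-0.53), C (-0.58) or D (-0.49) also ended the call, with adjusted p from 0.058 to 0.145, whereas without 37 °C replicate B it was a DEG (-0.62, adjusted p = 0.0434).

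At 42.5 °C the libraries of Sesn2 were at 7.86, 9.87, 13.1 and 13.2 CPM, on both sides of the controls. They did not differ from 37 °C by the test (0.06, 95% interval -0.28 to 0.39, adjusted p = 0.793). Sesn2 was higher there than in the 40 °C/1 h group, by 0.59 (adjusted p = 0.0059), and than in the 40 °C/6 h group, by 0.78 (adjusted p = 4.15e-04). The former lay close to the DEG fold and was under it with the replicate block (0.57) and without 40 °C 1 h replicate D (0.55), 42.5 °C replicate C (0.51) or 42.5 °C replicate D (0.49), though it passed the test in each case.

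Asns (ENSCGRG00001015428) was at 41.9, 48.5 and 46.8 CPM in the controls, at 40.8 to 49.2 CPM after 1 h at 40 °C and at 44.1 to 54.2 CPM at 42.5 °C. After 6 h at 40 °C it was at 30.1, 49.1, 33.2 and 33.1 CPM. Replicate B of that group stood at the control level and the other 3 below every control. The fall at 6 h was -0.33 (SE 0.12, adjusted p = 0.0458), and without 40 °C 6 h replicate B it was -0.51 (adjusted p = 1.18e-04). Leaving out any other single library ended this call, with values from -0.39 to -0.25 and adjusted p from 0.0533 to 0.179. Control replicate D stood at 56.3 CPM, above the other controls, and the call was lost with all 4 controls (-0.41, adjusted p = 0.111) and under the DESeq2 Wald test (-0.33, adjusted p = 0.221) too. Asns was higher at 42.5 °C than in the 40 °C/6 h group, by 0.46 (adjusted p = 0.00348), and that difference passed under every alternative.

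Ddit4 (ENSCGRG00001003691), which encodes the mTORC1 inhibitor REDD1, passed in 0 of the 6 comparisons, the 1 member of which this was so. Its libraries were at 4.01 to 4.49 CPM at 37 °C, at 2.84 to 5.47 CPM after 1 h at 40 °C, at 3.53 to 6.16 CPM after 6 h and at 3.88 to 5.60 CPM at 42.5 °C. The 4 group means ran from 4.24 to 4.72 CPM, the groups overlapped, and the widest 95% interval against 37 °C, that at 1 h, reached from -0.34 to 0.46. With 37 to 79 counts per library its counting error was 11.3% to 16.4% of the value, against a coefficient of variation of 26.02% and 24.2% among the libraries of the 40 °C/1 h and 40 °C/6 h groups, and differences within that interval were not detectable here.

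The heated groups were also set against each other, by duration at 40 °C, by temperature at 1 h, and with both changed. Between 6 h and 1 h at 40 °C, 1 member passed (Atf4, lower at 6 h) and 0 were DEGs, where 18.5% of all genes passed and 1.28% were DEGs. Without 40 °C 1 h replicate B, Atf4 was a DEG in this comparison (-0.63, adjusted p = 4.54e-04). Between 42.5 °C and the 40 °C/1 h group, 7 members passed, 5 of them higher at 42.5 °C and 2 lower (Atf5 and Trib3). Of these, 4 were DEGs, each higher at 42.5 °C. Of all genes, 36.1% passed and 5.27% were DEGs. Between 42.5 °C and the 40 °C/6 h group, 8 members passed, 6 of them higher at 42.5 °C and the same 2 lower. Temperature and duration both differ here, so their parts cannot be told apart. The 5 DEGs (Atf4, Atf3, Chac1, Ppp1r15a and Sesn2) were each higher at 42.5 °C. Of all genes, 47.0% passed and 8.25% were DEGs. These comparisons share libraries with those above and are not further evidence of them. Over the 6 comparisons, 26 of 60 member values passed, 19 of them under every alternative, and 15 were DEGs, 13 of them under every alternative.

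Within the groups the members' extremes fell on particular libraries. At 42.5 °C, replicate D was the highest library for 8 of the 10 members and the lowest for Trib3, and replicate A was the lowest for 7. After 1 h at 40 °C, replicate C was the highest for 8 members, and replicate B was the lowest for 5, which include the 4 transcription factors. How often these libraries hold the highest or lowest value over all genes was not counted, so these counts do not set the members apart. Across all genes, 42.5 °C replicate D had 2.18% of genes at 1.5-fold or more from the rest of its group. This was the highest share among the 15 libraries used, with 1.68% to 1.86% in the other libraries at 42.5 °C. In 40 °C 1 h replicate B the share was 1.41%. Without 42.5 °C replicate D, Chac1 was still 1.72 higher on the log2 scale than at 37 °C (adjusted p = 1.25e-07).

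In RefSeq's annotation of another hamster assembly, Ddit3 overlaps Mars1, Atf5 overlaps Il4i1 and Nup62, Asns overlaps an open reading frame gene, CUNH13orf42, and Ddit4 overlaps Lrrc7, while the other 6 members overlap no gene. Whether the counting used strand is not given in the sources used here, so reads of the overlapping genes cannot be told apart from those of these 4 members. Atf4, Atf3, Chac1, Trib3, Ppp1r15a and Sesn2, the 6 without an overlap, hold all 15 DEG values.

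None of the 4 kinases that phosphorylate eIF2α was a DEG against 37 °C at any dose. Eif2ak1 (HRI) and Eif2ak3 (PERK) passed in none of the 3 comparisons with 37 °C, with log2 fold changes from -0.0047 to 0.03 for Eif2ak1 and from 0.08 to 0.09 for Eif2ak3. Eif2ak2 (PKR) was at 6.30 CPM on average at 37 °C and rose by 0.35 after 6 h at 40 °C (adjusted p = 0.0403) and by 0.41 at 42.5 °C (adjusted p = 0.0137). Eif2ak4 (GCN2) rose by 0.16 at 42.5 °C (adjusted p = 0.0222). Of these 3 calls, the first was lost in 8 of 13 alternatives, the second in 2 (the Wald test of DESeq2, and without 37 °C replicate B) and the third in 3 (all 4 controls, and without 37 °C replicate A or B). mRNA levels say nothing of kinase activity or of eIF2α phosphorylation, which were not measured here.

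The wider circle of the ISR comprised 85 names in 4 lists (the kinases, eIF2 and its regulators, partners of ATF4 and CHOP, and other targets), of which 74 were found and 61 tested. Some genes were listed under more than 1 name, so a name not found is not always a missing gene. After 1 h at 40 °C, 1 of the 61 was a DEG, after 6 h 4 were, and at 42.5 °C 6 were, where 0.334%, 3.11% and 7.51% of all genes were DEGs. The 4 at 6 h became 10 without 40 °C 6 h replicate A. Those that passed numbered 1, 27 (9 higher, 18 lower) and 26 (12 higher, 14 lower), against 1.64%, 29.4% and 43.1% of all genes, and the median log2 fold changes were -0.02, -0.12 and -0.01. The share that passed at 42.5 °C lay near that of all genes. Among the 37 other ATF4 or CHOP targets tested, 16 fell and 4 rose after 6 h at 40 °C, with a median of -0.19, and 10 fell and 3 rose at 42.5 °C, with a median of -0.05. Against the 29.4% of all genes that passed at 6 h and the 43.1% at 42.5 °C, the share of passing targets was above the background at the first of these doses and below it at the second, so that their count does not set them apart at 42.5 °C. None of the 13 genes of eIF2 and its regulators was a DEG at any dose. Of the eIF2 subunits listed, only Eif2s1 was found by name.

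Among the partners, Cebpb (ENSCGRG00001001737), which encodes C/EBPβ, a protein that CHOP binds, was the DEG of the 40 °C/1 h group. Its mean was 5.07 ± 0.472 CPM (SD, n = 3) at 37 °C, 8.53 ± 2.00 after 1 h at 40 °C, 8.68 ± 5.23 after 6 h and 13.6 ± 3.76 at 42.5 °C (SD, n = 4 each). The lowest heated library of each group lay above the highest control used, at 6.39, 5.61 and 10.7 CPM against 5.35 CPM. The 6 h difference, 0.78, did not pass (adjusted p = 0.0601), and the highest library of that group stood at 16.5 CPM, with a coefficient of variation of 60.3%. The rise at 42.5 °C was 1.40 in log2 units with an SE of 0.18 (adjusted p = 2.28e-05) and held as a DEG under all 13 alternatives. That in the 40 °C/1 h group, 0.74 (adjusted p = 0.0393), was lost in 7 of 13, which are all 4 controls, 1 fit over all groups and leaving out 37 °C replicate A, B or C or 40 °C 1 h replicate C or D, with values down to 0.47. Cebpg, the partner of ATF4 in many of its dimers, rose by 0.61 at 42.5 °C (adjusted p = 0.00396) and passed under all 13 alternatives, but short of the DEG fold in 4 of them, the replicate block and without 37 °C replicate A (0.58), 37 °C replicate C (0.56) or 42.5 °C replicate D (0.53).

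Of the amino acid transporters that ATF4 controls, Slc7a11, the cystine carrier, fell from 5.57 ± 0.502 CPM (SD, n = 3) to 2.75 ± 0.513 CPM (SD, n = 4) after 6 h at 40 °C, by 1.03 on the log2 scale (adjusted p = 2.65e-04). Slc6a9, a glycine transporter, fell by 0.89 (adjusted p = 3.41e-04) in the same group, and Stc2, a secreted glycoprotein, fell by 0.69 (adjusted p = 1.57e-04). These 3 genes were DEGs at 6 h under all 13 alternatives. Aldh18a1, an enzyme of proline synthesis, rose by 1.06 (adjusted p = 0.0157), from a mean of 0.684 CPM, and was lost under the DESeq2 Wald test and without 37 °C replicate A or 40 °C 6 h replicate B (lowest value 0.86). Slc7a11 and Slc6a9 did not pass at 42.5 °C (-0.14 and -0.28). Slc38a2, an amino acid transporter on the same list, was not a DEG after 6 h at 40 °C, but its mean there was higher. It was at 559 CPM (498 to 584) against 450 CPM (422 to 477) in the controls used.

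At 42.5 °C the remaining DEGs among the other targets were apoptosis and growth-arrest genes and Stc2. Gadd45b fell by 1.05 (adjusted p = 2.92e-06), from 15.9 to 7.74 CPM, and Bbc3, which encodes the death effector PUMA, fell by 1.01 (adjusted p = 8.8e-04), from 5.20 to 2.62 CPM. Bcl2l11, which encodes the death effector BIM, rose by 0.62 (adjusted p = 3.51e-04), from 13.8 to 21.3 CPM, and had a rise of 0.58 (adjusted p = 9.51e-05) after 6 h at 40 °C. Stc2 fell by 0.59 (adjusted p = 4.28e-05). Gadd45b and Bbc3 were DEGs at 42.5 °C under all 13 alternatives. Stc2 and Bcl2l11 passed under all 13, but Stc2 was short of the DEG fold in 4, with all 4 controls (-0.57) and without 37 °C replicate C (-0.53) or 42.5 °C replicate A (-0.58) or B (-0.58), and Bcl2l11 in 2, with the replicate block and without 42.5 °C replicate C (0.57). In these targets, as in the members, values of either sign stood side by side at the same dose.

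**Figure D3:**
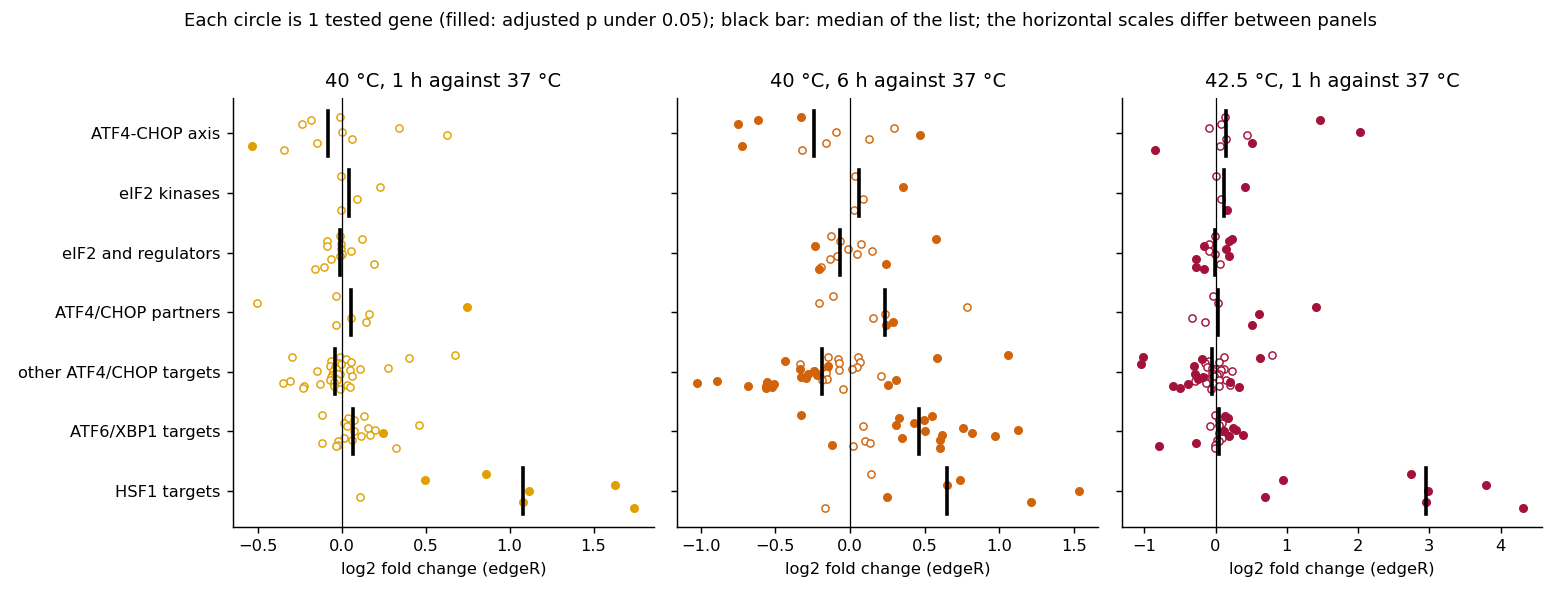
Log2 fold change against 37 °C (horizontal axis, scales differ between the panels) of each tested gene in the axis, the 4 lists of other ISR genes and, for comparison, targets of ATF6 and XBP1 and of HSF1; filled circles passed and black bars are medians. After 6 h at 40 °C the axis and the other ATF4 or CHOP targets have medians of -0.24 and -0.19 and the ATF6 and XBP1 targets one of 0.46, and at 42.5 °C the HSF1 targets have a median of 2.96.

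The targets of 2 other stress pathways are given for comparison. The ATF6 and XBP1 targets, which carry the ER-folding arms of the unfolded protein response, rose in 14 and fell in 2 of 20 tested genes in the 40 °C/6 h group, 7 of them DEGs, with Hspa5 (1.13), Pdia4 (0.97) and Manf (0.81) the furthest from 37 °C and DEGs under all 13 alternatives. Of all genes, 29.4% passed and 3.11% were DEGs there. At 42.5 °C they had 7 higher, 2 lower and 1 DEG, Syvn1 (-0.79), against 43.1% passed and 7.51% DEGs among all genes. The HSF1 targets code for heat shock chaperones and their helpers, and of 10 names listed 7 were found and tested. They had 5, 4 and 7 DEGs after 1 h and then 6 h at 40 °C and at 42.5 °C, all of them higher. Their medians were 1.08, 0.65 and 2.96, where 0.334%, 3.11% and 7.51% of all genes were DEGs. The list was chosen with earlier results of these data known, so its shares are no independent yardstick for the members. The 5 DEGs of the 40 °C/1 h group (Hsph1, Dnajb1, Hspb1, Bag3 and Zfand2a) did not pass with all 4 controls, with values from 0.81 to 1.73 and adjusted p from 0.114 to 0.408, and Bag3 passed in 7 of 13 alternatives. Of the 4 at 6 h, Dnajb1 did not pass in 1 fit over all groups (adjusted p = 0.0928), and the 7 at 42.5 °C were DEGs under all 13. In the 40 °C/1 h group the members' median was -0.08 and that of the ATF6 and XBP1 targets 0.07, with 0 DEGs in either. No test of one list against another was made.

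By a measure of likeness, the root mean square (RMS) difference of log2 CPM over the 15 libraries used, each gene centred on its mean, the nearest of 10333 genes to Atf4 were Ublcp1 (0.155), Cdc42ep3 (0.184), Slc7a1 (0.187), Dhx9 (0.189) and Ccdc122 (0.196). Slc7a1, a carrier of cationic amino acids, is on the list of other ATF4 targets, and its means were 119 CPM at 37 °C, 115 after 1 h and 81.1 after 6 h at 40 °C, and 137 at 42.5 °C. Among the members, Sesn2 was the nearest to Atf4 (0.219, rank 21), followed by Asns (0.287, rank 388) and Ppp1r15a (0.296, rank 529). Ddit3 ranked 8682 and Chac1 10187. These are descriptions over libraries of 4 groups and carry no test, and a gene of low level has more counting scatter in such a difference.

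The profile of Ddit3 was nearest to that of Ccdc117 (0.142), whose means were 16.7, 26.8, 24.3 and 23.8 CPM in the controls, after 1 h and 6 h at 40 °C, and at 42.5 °C. After 1 unnamed gene it was followed by Dnajb9 (0.196, listed as DNAJB9), an ER co-chaperone on the list of ATF6 and XBP1 targets, a second unnamed gene, and Nkiras1 (0.231). The nearest members were Atf5 (0.288, rank 78) and Ddit4 (0.290, rank 85). Atf3 was nearest to Skil (0.238), Zkscan14 (0.280), Ccdc96 (0.293), Bhlhe40 (0.301) and Hbegf (0.327), and Chac1 stood at rank 10 (0.350). Trib3 was among the least like Atf3 (rank 9714).

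**Figure D4:**
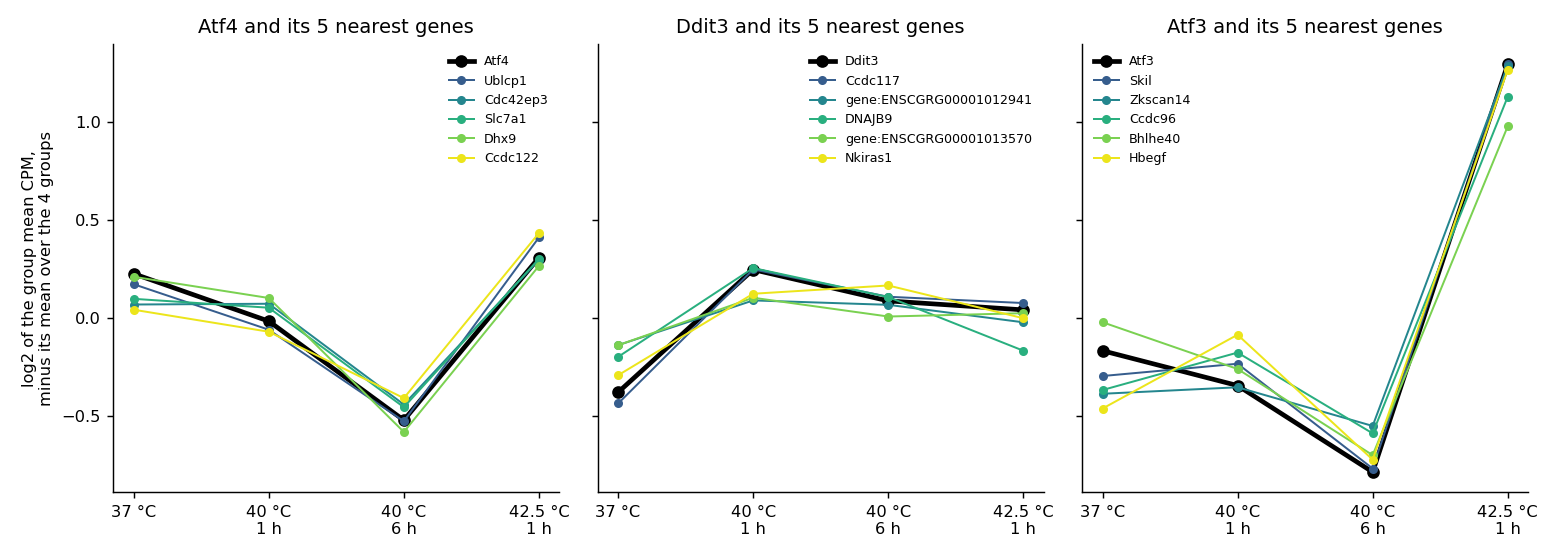
Log2 of the group mean CPM, minus its mean over the 4 groups (vertical axis), for Atf4, Ddit3 and Atf3 (black) and the 5 genes nearest to each, against heat dose. The genes near Atf4 are lowest in the 40 °C/6 h group, those near Atf3 are highest at 42.5 °C, and those near Ddit3 are lowest at 37 °C.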

How the data were processed

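The data are 16 RNA-seq libraries of CHO cells. The study's methods state that total RNA was turned into TruSeq libraries, and that the reads were trimmed, mapped to the CHOK1GS_HDv1 genome and counted with CLC Genomics Workbench. The authors deposited raw counts, 1 whole number for each gene in each library, not normalized. The version, the annotation release, the use of strand and the handling of reads with several mapping places are not given in the sources used here. Any of them could shift counts of overlapping or duplicated genes.

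The study left out 1 control as inconsistent with its group. This was taken to be 37 °C replicate D, from the counts of 920 genes that the study's supplement prints per library. In each of the other 15 libraries 920 counts were identical to a printed column. For replicate D, the column that matched best held 36 identical counts. Genes were kept by filterByExpr, normalized by TMM and tested with edgeR 4.0.16 in R 4.3.3 on the libraries of the groups compared (glmQLFit, glmQLFTest). P values test a difference between groups against the spread between the repeats, and depth errors quoted are counting errors. Standard errors were taken as the log2 fold change over the square root of F. Members passed at an adjusted p under 0.05, and DEGs also changed at least 1.5-fold, as in the study's own rule.

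Alternatives were DESeq2 size factors, the DESeq2 1.42.0 Wald test, no filter, a joint fit of the 4 groups, a block on the replicate letter, all 4 controls, adjusted p alone, and each library left out in turn. The members, gene lists, tests and alternatives were chosen with earlier results of these data known. Named genes are all members, the eIF2 kinases, the other ISR genes that were DEGs against 37 °C, up to 3 DEGs per comparison of the ATF6 and XBP1 and of the HSF1 targets, and the 5 genes nearest to Atf4, Ddit3 and Atf3 among those of at least 1 CPM (log2 CPM with a prior count of 2). Slc38a2 and Eif2s1 are named besides, outside this rule. No promoter or protein sequence was analysed here, and RefSeq, on another assembly, served for neighbours only.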

Additional observations from a re-analysis of the deposited data

Results flagged for a closer look

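Asns in 40 °C 6 h replicate B was at 49.1 CPM, against 30.1 to 33.2 CPM in the other libraries of its group, a gap of 0.837 of the group's range, above the 95% critical value of Dixon's test for 4 samples. It was the 1 value past this limit among 30 groups examined, and chance puts about 1 in 20 groups past it. Ddit3 in 37 °C replicate D, a library outside the comparisons, was at 9.17 CPM, 1.64 times the highest of the controls used. Between 1 h at 42.5 °C and 1 h at 40 °C, 4 members were DEGs by the direct test of these groups, which used no control library. The differences were 1.65 (Atf3), 2.03 (Chac1), 0.65 (Ppp1r15a) and 0.59 (Sesn2) in log2 units. What accounts for any of these values was not tested.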

How the results depend on the processing

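Of the 60 member values, 37 alternative values had the opposite sign, and 0 of these concerned a value that had passed. Members called at 40 °C/1 h against 37 °C numbered 0, and 1 with no filter, with the replicate block or by adjusted p alone, and 0 to 1 with single libraries left out. That member was Ddit3 with no filter and with the block. The 3 DEGs at 40 °C/6 h became 2, without Atf3, under the DESeq2 Wald test, in 1 fit over all groups, with the block and with all 4 controls, and were 2 to 3 with libraries left out. By adjusted p alone the members called were 5 at 40 °C/6 h (3 as DEGs), 4 at 42.5 °C (3), 1 between durations (0, and 0 to 1 with libraries left out), 7 for 42.5 °C against 40 °C/1 h (4) and 8 against 40 °C/6 h (5). Other ISR genes called at 40 °C/1 h fell from 1 to 0 in 1 fit over all groups, with all 4 controls and with the replicate block, and were 0 to 1 with libraries left out. At 40 °C/6 h they were 4, and 27 by adjusted p alone, 4 to 10 with libraries left out (10 without 40 °C 6 h replicate A). At 42.5 °C they were 6, and 26 by adjusted p alone.

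Values near 0 that changed sign were Chac1 at 40 °C/1 h (-0.0016 under the DESeq2 Wald test, -0.0667 to 0.1077 with single libraries left out) and, under the replicate block, Asns at 40 °C/1 h (0.0003), Ddit4 at 40 °C/6 h (-0.0539) and Sesn2 at 42.5 °C (-0.0663). With single libraries left out, the ranges that crossed 0 were -0.0743 to 0.0351 (Asns) and -0.0501 to 0.2188 (Ddit4) at 40 °C/1 h, -0.0431 to 0.2271 (Ddit4) at 40 °C/6 h, and -0.0019 to 0.2039 (Atf4), -0.1997 to 0.0295 (Atf5) and -0.0474 to 0.1954 (Sesn2) at 42.5 °C. Between durations they were -0.1290 to 0.0258 (Atf5), -0.0781 to 0.0935 (Trib3), -0.0321 to 0.0245 (Ppp1r15a) and -0.1051 to 0.1776 (Ddit4). For 42.5 °C they were -0.0656 to 0.2026 (Ddit4) against 40 °C/1 h, and -0.3193 to 0.1164 (Ddit3) and -0.0777 to 0.1974 (Ddit4) against 40 °C/6 h. The cause was not tested.

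The replicate block used the letters A to D. The main fits held no block, since the study's methods name none for the sequencing. Same-letter libraries of different groups had a mean correlation of deviations of 0.05 (21 pairs, -0.05 to 0.18). For other letters it was -0.02 (63 pairs, -0.22 to 0.17), and 5 of 15 libraries were nearest to their own letter. Whether the letters mark a weak shared batch was not tested. With control D left out, the block gives heated replicate D no partner. With the block Ddit3 at 40 °C/1 h was a DEG (0.60, adjusted p = 0.0154) and Asns passed between durations (-0.33, adjusted p = 0.0139). Atf3 at 40 °C/6 h (-0.56), Sesn2 for 42.5 °C against 40 °C/1 h (0.57), Cebpb at 40 °C/1 h (0.58), Xbp1 at 40 °C/6 h (0.55) and, at 42.5 °C, Cebpg (0.53) and Bcl2l11 (0.58) passed short of the DEG fold, and Eif2ak2 at 40 °C/6 h did not pass (0.37). It changed no other call of the genes named. Depth sets a counting error, for Ddit4 11.3% to 16.4% of the value.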
